A study of Mus musculus with 6 samples.

Results

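miR-103 and miR-107 are a pair of almost identical miRNAs cut from introns of the pantothenate kinase (Pank) genes. All mature miRNAs named miR-103 or miR-107, of either hairpin arm, were chosen by that name, which gave 5 of the 1055 miRNAs in the deposited tables. The pair itself was picked for description with earlier results of these data known. They are the guides miR-103 and miR-107 and the star arms miR-103-1*, miR-103-2* and miR-107*, a star marking the arm of the hairpin that is usually less abundant. Small RNAs of 19 to 25 nucleotides were sequenced from whole brains of 3 wild-type and 3 Adar2-/- mice, 1 library per brain. The deaminase ADAR2 converts adenosine to inosine in double-stranded RNA, miRNA precursors included, and the series asks how its loss affects the abundance of mature miRNAs. The mice were female siblings of a 129SV (SV129) background aged 5.5 months, born to parents heterozygous for the Adar2 deletion. Wild-type and Adar2-/- mice alike carried the pre-edited Gria2 allele (Gria2 R/R), which keeps Adar2-/- mice alive, so the wild type of this comparison was itself a modified line and its miRNAs were not set against mice with unmodified Gria2. Adar2 mRNA was not analysed here, and the genotype labels were therefore not checked.

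Pantothenate kinases catalyse the first committed step of coenzyme A synthesis, and miR-103 and miR-107 are transcribed within their genes in vertebrates. A guide loaded into an Argonaute protein finds its targets mostly through its seed, bases 2 to 8, so miRNAs with one seed are grouped as a family with overlapping targets. miR-103 and miR-107 are present in many tissues, brain among them, and are known from work on insulin sensitivity and on the miRNA-processing enzyme Dicer, whose mRNA they can bind.

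The mature sequences are shown because 1 base near the 3′ end is all that separates the guides. They were taken from RefSeq (GRCm38.p6 table), in which all 5 members had an entry, each 23 nucleotides long. Written 5′ to 3′ with the seed in capitals, they fall into 1 guide family with the seed GCAGCAU and 1 star-arm family with the seed GCUUCUU.
miR-103: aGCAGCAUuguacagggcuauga
miR-107: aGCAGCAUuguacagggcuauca
miR-103-1*: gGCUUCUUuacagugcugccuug
miR-103-2*: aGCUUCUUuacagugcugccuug
miR-107*: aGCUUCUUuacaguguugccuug

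Counted from 1 at the 5′ end, the only substitution between the guides is G22C, the base of miR-103 being given first. The same sequences are repeated for the guides with that base in capitals.
miR-103: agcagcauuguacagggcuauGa
miR-107: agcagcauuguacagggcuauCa
The first 21 bases are identical, so a read that ends at base 21 or earlier matches both equally well. Of the differing bases of the star arms, 1 lies at the 5′ end and the other further in. miR-103-1* and miR-103-2* are separated by G1A, and miR-103-2* and miR-107* by C16U.

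Each guide is made from the 3p arm and each star from the 5p arm. In all 3 hairpins the star spans positions 15 to 37 and the guide positions 52 to 74. miR-103 comes from 2 hairpins and its guide reads cannot be assigned to either, whereas its star arms differ at base 1. On the genome build the study used (NCBIM37, mm9), Mir103-1 lies at chr11:35595898-35595983 on the plus strand, in intron 5 of Pank3 and 688 bp from the exon before it. Mir103-2 lies at chr2:131113788-131113873 on the plus strand, in intron 7 of the Pank2 transcript with the most exons and 454 bp from the exon before it. Mir107 lies at chr19:34895177-34895263 on the minus strand, in intron 5 of Pank1 and 326 bp from the exon before it. All 3 hairpins lie wholly within an intron of the transcript used, are read in the direction of their host gene and are overlapped by no other annotated gene, and their genomic sequence was identical to the RefSeq hairpin.

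Wild-type libraries held 12449633 to 23471819 mapped miRNA reads and Adar2-/- libraries 18645810 to 23935544, wild-type replicate 1 being the shallowest. Abundance is given as RPM, the reads of a miRNA per 1000000 miRNA reads mapped in its library, and the intervals printed for shares cover counting error only. In whole brain, fewer cells that make a miRNA and less of it per cell cannot be told apart. Neuronal marker miRNAs (miR-124, miR-9, miR-128, miR-137 and miR-138) summed to between 127172 and 173598 RPM in wild-type libraries. In Adar2-/- libraries they summed to between 132984 and 146590 RPM. Most of each sum was miR-9, and the members differed. Over the 6 libraries, the Pearson r of log2 RPM with miR-103 was 0.87 for miR-128, 0.75 for miR-137 and 0.62 for miR-124. It was 0.08 for miR-138 and -0.06 for miR-9. Hepatic miR-122 reached at most 7.23 RPM. The muscle list (miR-1, miR-133a, miR-133b and miR-206) ran from 2340 to 3140 RPM in wild-type and from 2254.5 to 3390 RPM in Adar2-/- libraries.

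miR-103 was the major member in every library. It was read at 415, 252 and 311 RPM in wild-type replicates 1 to 3 and at 184, 465 and 555 RPM in Adar2-/- replicates 1 to 3. The lowest and the 2 highest values all belonged to Adar2-/- brains, so the genotypes overlapped. miR-107 was read at 72.4, 33.1 and 35.6 RPM in wild-type and at 29.7, 105 and 136 RPM in Adar2-/- replicates 1 to 3. It had the same order of libraries as miR-103, with Adar2-/- replicates 2 and 3 highest, wild-type replicate 1 next and Adar2-/- replicate 1 lowest. The highest library exceeded the lowest 3.01-fold for miR-103 and 4.59-fold for miR-107.

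The star arms were far rarer. miR-107* was read at 4.18, 7.33 and 7.37 RPM in wild-type and at 8.74, 6.19 and 8.48 RPM in Adar2-/- replicates 1 to 3. miR-103-2*, from the Pank2 hairpin, was read at 4.02, 2.55 and 4.09 RPM in wild-type and at 2.95, 2.42 and 3.84 RPM in Adar2-/- replicates. Both sets of values overlapped between the genotypes. miR-103-1*, from the Pank3 hairpin, had only 7, 10 and 6 reads in wild-type and 4, 8 and 15 reads in Adar2-/- libraries. At this depth a change of miR-103-1* was not detectable.

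The order of levels was the same in all 6 libraries, with miR-103 first, then miR-107, miR-107*, miR-103-2* and miR-103-1*. The ranges of neighbours over the 6 libraries did not overlap. They came closest for miR-107* and miR-103-2*, which had 52 and 50 reads in wild-type replicate 1, a difference within counting error. Among all miRNAs miR-103 was never below rank 145 by reads in a library, and miR-107 ranked between 191 and 280.

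**Figure D1:**
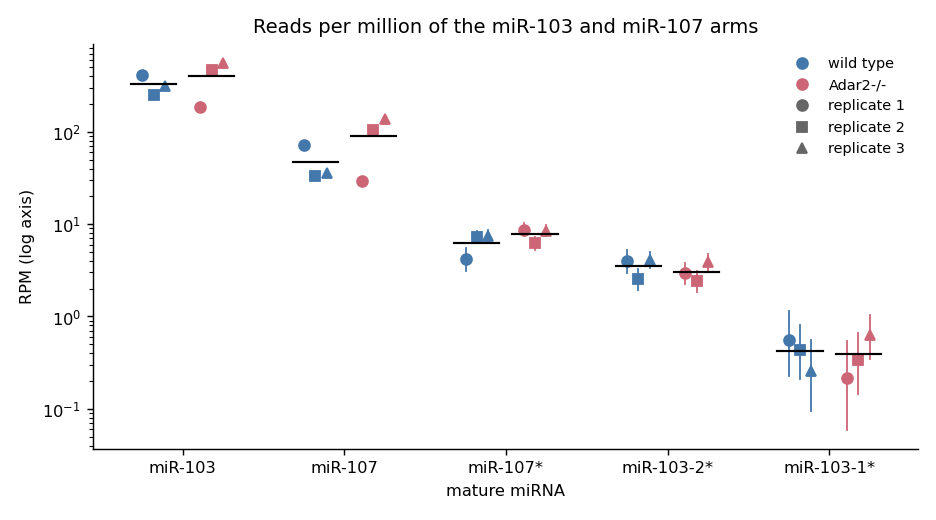
RPM (log axis) of the 5 members in each library, wild type in blue and Adar2-/- in red, with the marker shape giving the replicate number, coloured bars the 95% Poisson interval of the reads and black lines the mean of 3 libraries. miR-103 spans 184 to 555 RPM and miR-107 29.7 to 136 RPM, both with an Adar2-/- brain at either end.

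Neither guide passed the test between the genotypes, and both differed among Adar2-/- brains by more than the genotypes' means did. For miR-103 the wild-type mean of 326 ± 82.4 RPM (SD, n = 3) compared with 401 ± 193 RPM (SD, n = 3) in Adar2-/- brains, a ratio of 1.23. The log2 fold change of miR-103 was 0.30 with a standard error of 0.43 (edgeR quasi-likelihood test, adjusted p = 0.988). Its 95% interval, by a normal approximation, ran from -0.54 to 1.14. For miR-107 the wild-type mean of 47.0 ± 22.0 RPM (SD, n = 3) compared with 90.2 ± 54.7 RPM (SD, n = 3), a ratio of 1.92. The log2 fold change of miR-107 was 0.94 with a standard error of 0.54 (edgeR, adjusted p = 0.988) and an interval, of the same kind, from -0.12 to 2.01. The interval of miR-107 includes no change as well as a 4-fold rise, so this design cannot tell these apart. By size of the fold change miR-107 ranked 12 and miR-103 ranked 95 from the top among the 399 miRNAs tested, all those that reached 100 reads in each of the 6 libraries. By p they ranked 43 and 201.

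Of the 5 members, 2 passed this minimum and neither was called, and neither were any of the other miRNAs tested (0 of 399, 0.0%), although 13 had an unadjusted p under 0.05. DESeq2 called 1 miRNA, not a member, and gave 40 with an unadjusted p under 0.05. A criterion taken from the study, the same direction in all 3 replicate numbers and at least a 1.3-fold change of the mean, was met by 39 of 399 miRNAs (9.77%) and by no member. The p threshold that the study set beside it in its lists was not applied here. The genotypes did not overlap for 23 of 399 miRNAs (5.76%), again with no member among them. The median log2 fold change of all 399 was 0.0023.

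Direction within replicate numbers differed. For miR-103 the Adar2-/- to wild-type ratios of replicates 1 to 3 were 0.444, 1.84 and 1.78. For miR-107 they were 0.410, 3.17 and 3.83. Both guides were thus lower in the Adar2-/- brain in replicate 1 and higher in the other two. Without replicate 1 of both genotypes, the miR-107 log2 fold change was 1.81 (edgeR, adjusted p = 0.0375), the smallest p of all 399 miRNAs, and that of miR-103 was 0.86 (edgeR, adjusted p = 0.124). In that fit of 2 against 2 libraries 18 of 399 miRNAs were called higher (4.51%), miR-107 among them, and all 18 were lower in the Adar2-/- brain of replicate 1. The median of all miRNAs was then 0.17. Leaving out 1 library alone gave miR-107 an adjusted p of 0.234 without Adar2-/- replicate 1 and 0.669 without wild-type replicate 1. The call therefore rested on the removal of both libraries. Replicate 1 was also the number with the opposite direction, so leaving it out favours a rise. Without replicate 2 of both genotypes the miR-107 log2 fold change was 0.62 (edgeR, adjusted p = 0.992). Without replicate 3 it was 0.35 (edgeR, adjusted p = 0.997). Without replicate 1 both guides also met the criterion of direction and 1.3-fold size, as did 141 of 399 miRNAs that were higher in Adar2-/- brains (35.3%).

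**Figure D2:**
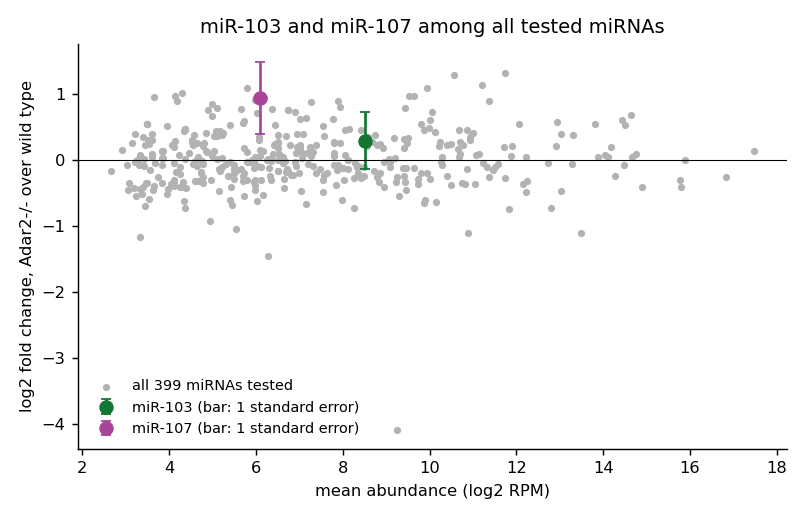
Log2 fold change of Adar2-/- over wild type against mean abundance (log2 RPM) for the 399 miRNAs tested (grey), with miR-103 in green, miR-107 in purple and bars of 1 standard error. miR-107 at 0.94 sits near the upper edge of the cloud and miR-103 at 0.30 within it.

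The star arms were too rare for this test and were read from a fit with no minimum. The log2 fold change was 0.30 for miR-107*, -0.21 for miR-103-2* and -0.02 for miR-103-1*, with edgeR adjusted p of 0.988, 0.988 and 0.995. miR-107* averaged 6.29 ± 1.83 RPM in wild-type and 7.80 ± 1.40 RPM in Adar2-/- brains (SD, n = 3 each, two-sided exact permutation p = 0.4). miR-103-2* averaged 3.55 ± 0.871 RPM and 3.07 ± 0.721 RPM (SD, n = 3 each, exact permutation p = 0.5). miR-103-2* was lower in the Adar2-/- brain in all 3 replicate numbers, with ratios of 0.734, 0.949 and 0.940, and the ratio of the means was 0.865. With a minimum of 10 reads in every library 4 of the 5 members could be held to the criterion of direction and 1.3-fold size, and none met it, against 69 of 608 miRNAs (11.3%). With 3 libraries against 3 the smallest p such a test can give is 0.1.

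Because reads that stop before base 22 can be given to either guide, the sum of both was followed as well. It averaged 373 ± 104 RPM (SD, n = 3) in wild type and 492 ± 248 RPM (SD, n = 3) in Adar2-/- brains, a ratio of 1.32 (exact permutation p = 0.7 on log2 values). The sum was lower in the Adar2-/- brain in replicate 1, with a ratio of 0.439, and higher in replicates 2 and 3, with ratios of 2.00 and 1.99. The overlap of the genotypes was thus not removed by adding the guides.

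The division of reads between the guides was not constant. In wild-type replicates 1 to 3, miR-107 made up 14.9% (95% Wilson interval 14.0 to 15.8), 11.6% (10.8 to 12.4) and 10.3% (9.62 to 10.9) of the summed reads. In Adar2-/- replicates 1 to 3 it made up 13.9% (12.8 to 15.0), 18.4% (17.8 to 19.1) and 19.7% (19.1 to 20.3). The share in Adar2-/- replicate 1 lay within the wild-type range and those of the other Adar2-/- replicates lay above it, beyond counting error. The mean share was 12.2 ± 2.36% and 17.3 ± 3.06% (SD, n = 3 each), a difference of 5.09 percentage points (exact permutation p = 0.2). As reads of miR-103 per read of miR-107, the ratio was 5.73, 7.63 and 8.75 in wild type and 6.21, 4.43 and 4.08 in Adar2-/- libraries. On the log2 scale the ratio averaged 2.86 ± 0.31 and 2.27 ± 0.32 (SD, n = 3 each), a difference of -0.59 (exact permutation p = 0.2). Wild-type replicate 1 and Adar2-/- replicate 1 again made the genotypes overlap.

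**Figure D3:**
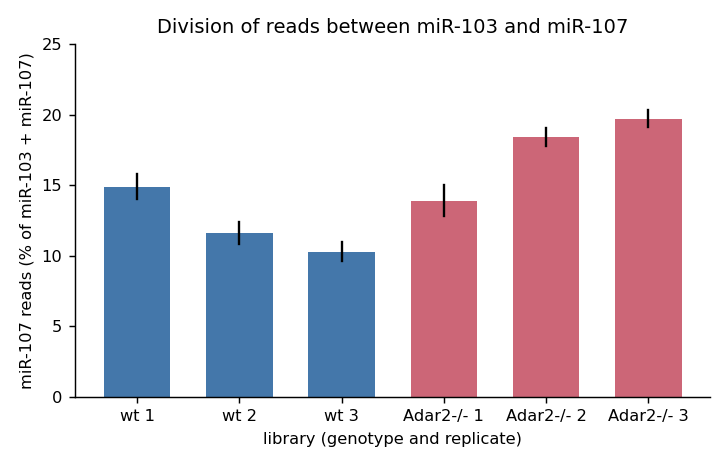
Share of miR-107 in the reads of miR-103 plus miR-107 (percent, bars from 0) in each library, with 95% Wilson intervals as black lines. The wild-type shares (blue) lie between 10.3% and 14.9%, the Adar2-/- shares (red) between 13.9% and 19.7%.

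The ratio was compared with that of 16 other pairs of near-identical miRNAs, as a description. The SD of the log2 ratio over the 6 libraries was 0.429 for miR-103 and miR-107, rank 16 of 17 from the smallest, against a median of 0.231. It was smallest for miR-23a and miR-23b at 0.0929 and largest for miR-148a and miR-152 at 0.710. The genotypes overlapped in all 17 ratios. Where RefSeq held both sequences, no other pair first differed so close to the 3′ end as G22C. The next were let-7a and let-7c with A19G and miR-27a and miR-27b with C19U, whose SDs were 0.267 and 0.345. Pairs that first differed earlier had SDs both above and below those of these next pairs. Larger were miR-148a and miR-152 (base 9, SD 0.710) and let-7a and let-7e (base 9, SD 0.405). Only miR-148a and miR-152 exceeded the SD of miR-103 and miR-107. Smaller was that of let-7b and let-7c (base 17, SD 0.196). The lengths of the reads are not in the tables, so the share of reads too short to separate the guides was not measured.

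**Figure D4:**
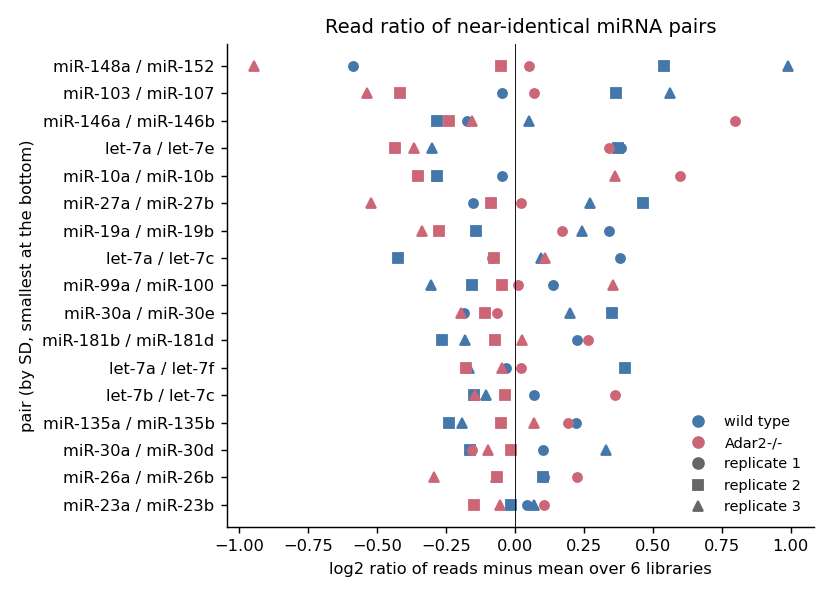
Log2 ratio of reads of 17 near-identical miRNA pairs, each centred on its mean over 6 libraries and ordered by SD, in wild type (blue) and Adar2-/- (red), with the marker shape giving the replicate number. miR-103 and miR-107 (SD 0.429) vary more than all pairs but miR-148a and miR-152 (SD 0.710).

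The ratio of guide to star arm varied between libraries. Each read of miR-107* was matched by 17.3, 4.51 and 4.83 reads of miR-107 in wild-type and by 3.39, 16.94 and 16.04 in Adar2-/- replicates 1 to 3. Between libraries miR-107 varied 4.59-fold and miR-107* 2.09-fold, so miR-107 had the larger part in the spread of their ratio. The ratio was highest in wild-type replicate 1, where miR-107* was lowest, at 4.18 RPM. There miR-107 stood at 72.4 RPM, below Adar2-/- replicates 2 and 3. The ratio was high in wild-type replicate 1 and in Adar2-/- replicates 2 and 3, the 3 libraries rich in miR-107, and low in the others. Its log2 mean differed by 0.43 between the genotypes (exact permutation p = 1.0). The SD of this log2 ratio over the 6 libraries was 1.11. Among 139 hairpins it ranked 13 from the highest, and their median was 0.609. These were hairpins whose arms carry the same name with and without a star, each with at least 10 reads in every library. Hairpins with arms named in other ways, as that of miR-103 with its numbered stars, were left out. Reads of miR-103 per read of its 2 star arms together were 90.6, 84.5 and 71.6 in wild-type and 58.2, 169 and 124 in Adar2-/- replicates (exact permutation p = 0.5 on log2 values). The star arms made up between 1.55% and 5.28% of all reads of the 5 members, with the largest share in Adar2-/- replicate 1, where the guides were lowest. By its construction this share falls as the guides rise.

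By sequence, base 1 of the star arms tells the 2 miR-103 hairpins apart. Over all libraries miR-103-2* had 408 reads and miR-103-1* had 50, which was 10.9% of the miR-103 star reads. In single libraries this share ran from 5.88% (Wilson interval 2.72 to 12.2) to 14.7% (8.19 to 25.0), and all 6 intervals overlapped. A read that lacks base 1 matches both, because that base is their only difference. A miR-103-2* read edited at base 1 would be read with G there and match miR-103-1*. Editing of reads was not analysed, so such reads were not told apart. These star reads describe the star arms and give no measure of how much miR-103 guide each hairpin made.

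Over the 6 libraries, each scaled to its own total, log2 RPM of miR-103 and miR-107 had a Pearson r of 0.94 and a Spearman rho of 1.0. These guides share the letters that allow a read to be given to either. Between guide and star the values were r = -0.25 for miR-107 and miR-107*, r = 0.29 for miR-103 and miR-103-2*, and r = 0.71 for miR-103 and the sparse miR-103-1*. miR-107 was only number 10 among the miRNAs most like miR-103. Higher were miR-152 (r = 0.99), miR-140* (0.99), miR-330* (0.98), miR-217 (0.97) and miR-191 (0.96), the 5 most alike. For miR-107 the 5 most alike were miR-181a (r = 0.99), miR-217 (0.98), let-7d (0.98), miR-320 (0.97) and miR-34c (0.97), with miR-103 at number 18. miR-3066 was the least alike for both, with r = -0.88 to miR-103 and r = -0.96 to miR-107. Of the 398 other miRNAs tested, 30 had an r above 0.9 with miR-103 and 44 with miR-107, and the median r was 0.43 and 0.34. The pattern of the guides over libraries was therefore shared with many miRNAs. miR-152 was read at 285, 150 and 168 RPM in wild-type and at 95.9, 290 and 344 RPM in Adar2-/- replicates 1 to 3, again lowest in Adar2-/- replicate 1.

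**Figure D5:**
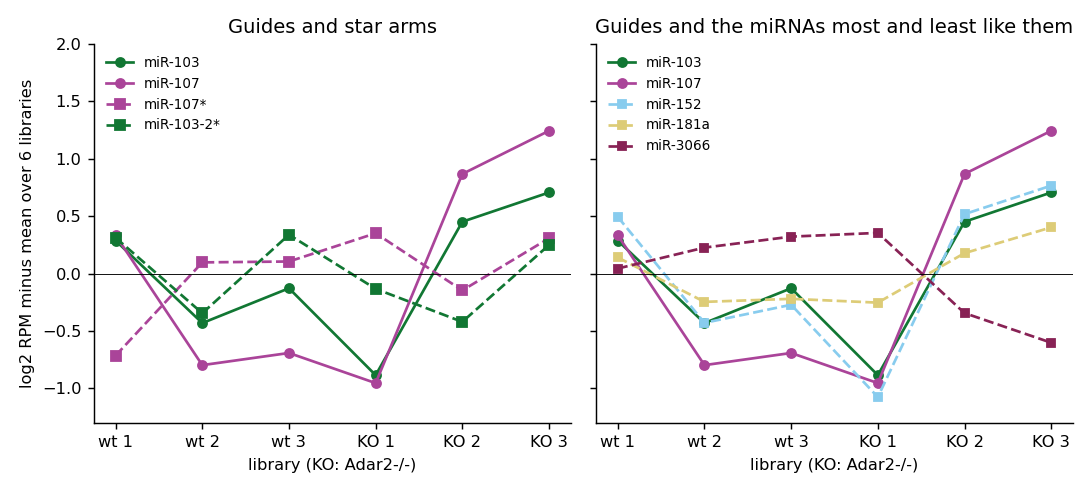
Log2 RPM of each miRNA minus its mean over the 6 libraries, for guides and star arms (left) and for the guides with miR-152, miR-181a and miR-3066 (right), in wild-type (wt) and Adar2-/- (KO) replicates 1 to 3. The guides rise and fall together (r = 0.94) while miR-107* does not follow miR-107 (r = -0.25).

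Markers of some other cell types differed between the same libraries. The pituitary list (miR-375 and miR-7a, both present in the tables) summed to 6270, 1010 and 1466 RPM in wild-type and to 1192, 2465 and 3640 RPM in Adar2-/- replicates 1 to 3, with the 3 highest sums in the 3 libraries in which the guides were highest. Its members differed. miR-7a stood at 2976, 898 and 1423 RPM in wild-type and at 1120, 2390 and 3585 RPM in Adar2-/- replicates, whereas for miR-375 wild-type replicate 1 alone was high, at 3294 RPM against 42.9 to 113 RPM in the other 5 libraries. The high sums of Adar2-/- replicates 2 and 3 were thus miR-7a. The list of sensory cells (miR-182, miR-183 and miR-96, all 3 present) summed to between 108156 and 155374 RPM in wild type and to 186903, 89664 and 19158 RPM in Adar2-/- replicates, highest in Adar2-/- replicate 1, where the guides were lowest. The epithelial list (5 of 5 present) ran from 4783 to 6267 RPM in wild type and stood at 9210, 5141 and 738 RPM in Adar2-/- replicates 1 to 3. The endothelial list ran from 29130 to 47306 RPM in wild type and from 25040.5 to 31721 RPM in Adar2-/- libraries. For the list of blood and immune cells the ranges were 1253 to 3561 and 2166 to 2955 RPM. For the choroid plexus list they were 838 to 1584 and 1064 to 1622 RPM. Oligodendrocyte miR-338-3p ran from 211 to 387 and from 237 to 519 RPM. None of these had the libraries in the order of the guides. No marker of these lists was at 0 in all libraries, and their part in the values of miR-103 and miR-107 was not tested.

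The letters AGCAGCA, with which both guides begin, recur 1 base further in as bases 2 to 8 of miR-15 group members, a family known for restraining the cell cycle. They are marked in capitals in its most read member here.
miR-16: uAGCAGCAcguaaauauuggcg
Of 7 miRNAs listed for this group, 5 were tested, 3 with a log2 fold change above 0 and 2 below it, and none was called (background 0.0%). Their median log2 fold change was 0.46, with a range from -0.37 to 1.32, against 0.0023 for all miRNAs tested. miR-16 was read at 1976, 2157 and 1743 RPM in wild-type and at 1445, 4879 and 8322 RPM in Adar2-/- replicates 1 to 3, lowest, as the guides were, in Adar2-/- replicate 1. Its log2 fold change was 1.32 (edgeR, adjusted p = 0.988). That of miR-195 was 1.10, and those of miR-322 and miR-497 were -0.28 and -0.37. miR-15b and miR-503 had too few reads, and in miR-503 the bases 2 to 8 were AGCAGCG, so that it lacked the shared letters.

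Other miRNAs known to lie in introns of protein-coding genes lay on both sides of 0. Of 25 listed, 24 were tested, 16 with a log2 fold change above 0 and 8 below it, none called (background 0.0%), with a median of 0.23 and a range from -0.74 to 1.29. miR-378, from an intron of Ppargc1b, which encodes a transcriptional coactivator of mitochondrial genes, averaged 174299 ± 34513 RPM (SD, n = 3) in wild type and 191313 ± 21009 RPM (SD, n = 3) in Adar2-/- brains, with a log2 fold change of 0.13. The endothelial miR-126-3p, from Egfl7, had a log2 fold change of -0.40, and miR-26a, from Ctdspl and Ctdsp2, one of 0.69. miR-26a was read at 10019 RPM in Adar2-/- replicate 1 and at 36634 and 48451 RPM in replicates 2 and 3, and its r with miR-103 was 0.95.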

How the data were processed

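Whole-brain small RNA of 3 wild-type and 3 Adar2-/- mice had been cloned with 15 cycles of PCR and read over 36 bases, 1 lane per library. According to their methods the authors clipped adaptors (Cutadapt), aligned the clipped reads to mature miRBase miRNAs (NextGenMap) and dropped reverse-strand hits. Reads with several equally good hits received weights, and how these became whole numbers is not given in the sources used here. The authors deposited read counts per miRNA in 3 tables without normalization, and 12 blank lines were dropped. Their genome build is named in the submitters' processing notes as mm9.

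Columns were assigned by genotype and by the replicate number of their table. The test was the quasi-likelihood method of edgeR 4.0.16 (glmQLFit, glmQLFTest; R 4.3.3) on counts of miRNAs that reached 100 reads in each library. Library size was the total of mapped miRNA reads, without scaling factors or a block, and p-values were adjusted by Benjamini-Hochberg with 0.05 as threshold. Standard errors of the log2 fold changes are those implied by the F statistic of this fit. Their 95% intervals are a normal approximation from these standard errors, narrower than the test itself would give. Shares carry 95% Wilson intervals, and PCR reads are not independent molecules. The remaining values came from scipy 1.17.1, pandas 2.3.3 and numpy 2.4.6 under Python 3.11.15, and plots from matplotlib 3.10.9. Likeness was the Pearson r of log2 RPM over 6 libraries, and the 5 highest and the lowest were named for each guide. Further miRNAs were named as the most read members of a list or as needed for the near-identical pairs. Two-sided exact permutation tests were used for single values. The procedure was tested on simulated data. For the edgeR fit, recovery of changes was required only at a dispersion set low, so its power in these libraries was not established.

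The members and lists were chosen with earlier results of these data known. Tried in turn were DESeq2 1.42.0, TMM factors, library totals that leave out the 5 most abundant miRNAs, a minimum of 10 reads or none, a replicate block, and leaving out each library or replicate number, with the set of tested miRNAs kept. Of the 40 miRNA names looked up, 37 had a RefSeq sequence, and miR-23b, miR-30d and miR-135b did not. The marker miRNA miR-219 was not in the tables under that name. Editing of reads, arrays and host mRNAs were not analysed here.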

Additional observations from a re-analysis of the deposited data

How the results depend on the processing

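Under scaling, count model, minimum and block alternatives miR-103 and miR-107 kept their direction and were not called. DESeq2 called 1 of all miRNAs tested in place of 0, and leaving out a library or a replicate number gave 0 to 18 calls, the 18 without replicate 1. With libraries left out, the log2 fold change of miR-103 ran from -0.039 (without replicate 3, and -0.0066 without Adar2-/- replicate 3) to 0.86, and that of miR-107 from 0.35 to 1.81, with edgeR adjusted p from 0.0375 to 0.998. The log2 difference of their sum ran from -0.10 to 1.00, and was -0.06 without Adar2-/- replicate 3, -0.10 without replicate 2 and -0.10 without replicate 3. The log2 ratio difference kept its direction, from -0.94 to -0.33. The criterion of direction and 1.3-fold size was met by 61 of 399 miRNAs with TMM factors and by 69 of 608 (11.3%) with a minimum of 10 reads, against 39 of 399 (9.77%), and by 46 to 176 of 399 with a replicate number left out, both guides among the 176 without replicate 1. The cause was not tested. Same-numbered libraries did not deviate together (r = -0.0010, -0.08 and -0.01). Libraries of different numbers had r from -0.03 to 0.07. The main fit did not take the number to pair brains, and ratios within a number are a description. Whether a litter or run was shared within a number was not tested. With a replicate block the log2 fold change was 0.21 for miR-103 and 0.86 for miR-107 (edgeR adjusted p = 0.983 for both), or 0.20 and 0.82 with TMM factors as well, and exact sign-flip tests gave p = 1.0 for the sum and 0.5 for the ratio. The replicate block called 0 miRNAs. Depth limits miR-103-1*, with at most 15 reads per library.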
